A study of Mus musculus with 12 samples.

Results

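The 10 genes described here encode the NF-kB transcription factor subunits and proteins that hold them back or otherwise regulate them. These are Nfkb1, Nfkb2, Rel, Rela and Relb, the genes named as inhibitors, Nfkbia, Nfkbib, Nfkbie and Nfkbiz, and Tnfaip3. They were chosen by symbol from the 55401 gene identifiers counted in each library, and all 10 were among the 16451 genes that passed the filter on low counts. These genes, and the gene lists used below, were chosen with earlier results of these data known. Shares of all genes set beside their counts are therefore a description and no independent test. The measurements are RNA-seq counts of microglia, the resident macrophages of the brain, sorted as CD45int CD11b+ cells from male mice. There were 4 groups of 3 libraries, the sham groups WT-Sham and miKO-Sham and the stroke groups WT-tFCI and miKO-tFCI. All mice carried loxp-flanked Hdac3 alleles, the WT controls included, and miKO mice also carried CreER in 1 allele of Cx3cr1, the fractalkine receptor gene that drives it in microglia. Deletion was induced with tamoxifen for 5 days at 6 to 8 weeks of age, with surgery at least 1 month later. tFCI is transient focal cerebral ischemia, a stroke model in which the left middle cerebral artery was occluded for 60 min. Sham mice had anesthesia and exposure of the artery without occlusion. Cells were taken on day 3 after tFCI, and each library pooled 3 to 4 hemispheres. The miKO mice therefore differ from WT mice both in the deleted Hdac3 and in 1 Cx3cr1 allele that carries CreER, and these cannot be told apart here.

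NF-kB subunits work as pairs. In resting cells, IkB proteins hold the pairs in the cytoplasm, and signals from receptors for TNF, IL-1 or microbial products activate the IKK kinases, which mark IkB for destruction and free the subunits to enter the nucleus. The freed pairs switch on inflammatory genes and also several genes of their own inhibitors, which closes a negative feedback loop. In microglia the pathway is known for driving cytokine and chemokine genes after injury, and HDAC3, the enzyme deleted here, is known to remove acetyl groups from histones and from the p65 subunit. Transcript levels, as measured here, say nothing about the location or modification of the proteins.

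In GRCm38 coordinates, the subunit genes lie at chr3:135584655-135691547 (Nfkb1, ENSMUSG00000028163.17, minus strand), chr19:46304320-46312385 (Nfkb2, ENSMUSG00000025225.15, plus), chr11:23736847-23770970 (Rel, ENSMUSG00000020275.9, minus), chr19:5637483-5648130 (Rela, ENSMUSG00000024927.8, plus) and chr7:19606217-19629438 (Relb, ENSMUSG00000002983.17, minus). The inhibitor genes lie at chr12:55489410-55492647 (Nfkbia, ENSMUSG00000021025.8, minus), chr7:28758251-28767512 (Nfkbib, ENSMUSG00000030595.15, minus), chr17:45555703-45563169 (Nfkbie, ENSMUSG00000023947.8, plus), chr16:55811375-55838899 (Nfkbiz, ENSMUSG00000035356.17, minus) and chr10:19000910-19015657 (Tnfaip3, ENSMUSG00000019850.11, minus). All are protein-coding and were counted over their exons. Exons of Nfkb2 overlap AC114539.1 by 531 bases and Psd by 299 bases on the other strand, and exons of Nfkbib overlap Ccer2 by 314 bases and Sirt2 by 42 bases. Whether reads were counted by strand is not given in the sources used here, so the counts of these 2 genes could hold reads of their neighbours and are uncertain to that extent.

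The promoters of 5 genes are shown because members of this family are known to be switched on by NF-kB itself. Of the 5 genes, 4 were lower in miKO-tFCI than in WT-tFCI by the test described below, and Rela was not. Rel and Nfkbib, whose windows are not printed, were lower as well (log2 −0.66 and −0.58), and the Nfkbib window held 0 matches. Any link between matches and these differences was not tested. Each sequence is the RefSeq promoter window of GRCm38.p6, from 250 bases before to 50 bases after a transcription start, printed 5′ to 3′ on the strand of the gene. Capitals mark matches to the kappaB consensus, which has 10 letters, or to the 9-letter motif GGNNTTTCC. Both motifs were searched on both strands, and matches may overlap each other.
Nfkbia (chr12:55492598-55492897, minus strand): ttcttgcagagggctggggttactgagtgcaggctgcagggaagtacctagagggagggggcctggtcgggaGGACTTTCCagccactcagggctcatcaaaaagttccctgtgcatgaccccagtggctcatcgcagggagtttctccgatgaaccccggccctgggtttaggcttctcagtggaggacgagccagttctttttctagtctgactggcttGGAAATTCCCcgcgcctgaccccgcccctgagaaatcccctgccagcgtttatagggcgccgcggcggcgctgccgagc
Tnfaip3 (chr10:19015361-19015660, minus strand): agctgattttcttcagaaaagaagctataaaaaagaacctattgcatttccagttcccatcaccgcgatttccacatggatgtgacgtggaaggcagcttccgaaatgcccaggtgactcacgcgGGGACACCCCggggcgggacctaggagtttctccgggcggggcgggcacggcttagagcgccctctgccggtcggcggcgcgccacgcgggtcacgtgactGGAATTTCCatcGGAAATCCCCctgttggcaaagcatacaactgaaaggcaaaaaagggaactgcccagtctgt
Nfkb2 (chr19:46304487-46304786, plus strand): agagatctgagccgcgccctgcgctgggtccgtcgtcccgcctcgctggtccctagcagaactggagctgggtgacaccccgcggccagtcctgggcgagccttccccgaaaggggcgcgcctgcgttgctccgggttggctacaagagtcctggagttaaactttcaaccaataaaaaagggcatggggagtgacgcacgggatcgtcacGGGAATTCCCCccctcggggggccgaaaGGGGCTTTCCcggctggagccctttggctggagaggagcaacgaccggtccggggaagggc
Nfkbie (chr17:45555450-45555749, plus strand): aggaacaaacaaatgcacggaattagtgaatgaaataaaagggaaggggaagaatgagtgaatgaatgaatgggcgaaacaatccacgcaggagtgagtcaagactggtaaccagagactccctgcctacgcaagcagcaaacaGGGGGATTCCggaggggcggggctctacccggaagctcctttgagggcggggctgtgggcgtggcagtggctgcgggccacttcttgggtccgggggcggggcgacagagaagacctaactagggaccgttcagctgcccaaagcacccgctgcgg
Rela (chr19:5637291-5637590, plus strand): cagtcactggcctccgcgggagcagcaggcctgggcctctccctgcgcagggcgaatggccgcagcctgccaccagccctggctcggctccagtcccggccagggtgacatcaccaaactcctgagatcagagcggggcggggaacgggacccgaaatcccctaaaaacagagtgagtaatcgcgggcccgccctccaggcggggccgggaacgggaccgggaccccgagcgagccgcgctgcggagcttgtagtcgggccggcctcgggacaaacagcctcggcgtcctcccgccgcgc
The Nfkbia window held 1 match to the consensus and 2 to the 9-letter motif, of which 1 lay inside the consensus match 29 to 20 bases before the start. The Tnfaip3 window held 3 consensus matches and 2 matches to the 9-letter motif in 29 bases, and a window at its other start held 0. Of the consensus matches, 2 were the same bases, 125 to 116 before the start, read on both strands. In the other consensus match lay 1 of the 9-letter matches. The Nfkb2 window held 5 matches in 21 bases, counted on both strands, and the windows of its other 2 starts held 3 and 2. The Nfkbie window held 1 consensus match, and the Rel window, not printed, held 4 overlapping matches in 11 bases. In the windows of Rela and Nfkbib 0 matches were found, which says only that these letters are not in these windows. RefSeq windows were found for 7 of the 10 genes, and Nfkb1, Relb and Nfkbiz had no entry. Of the 27025 genes with a window, 9.55% held the consensus, 6.62% the 9-letter motif and 14.4% either of them, against 5 of these 7 genes. A match is a description of letters and does not show that a factor binds there.

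**Figure D1:**
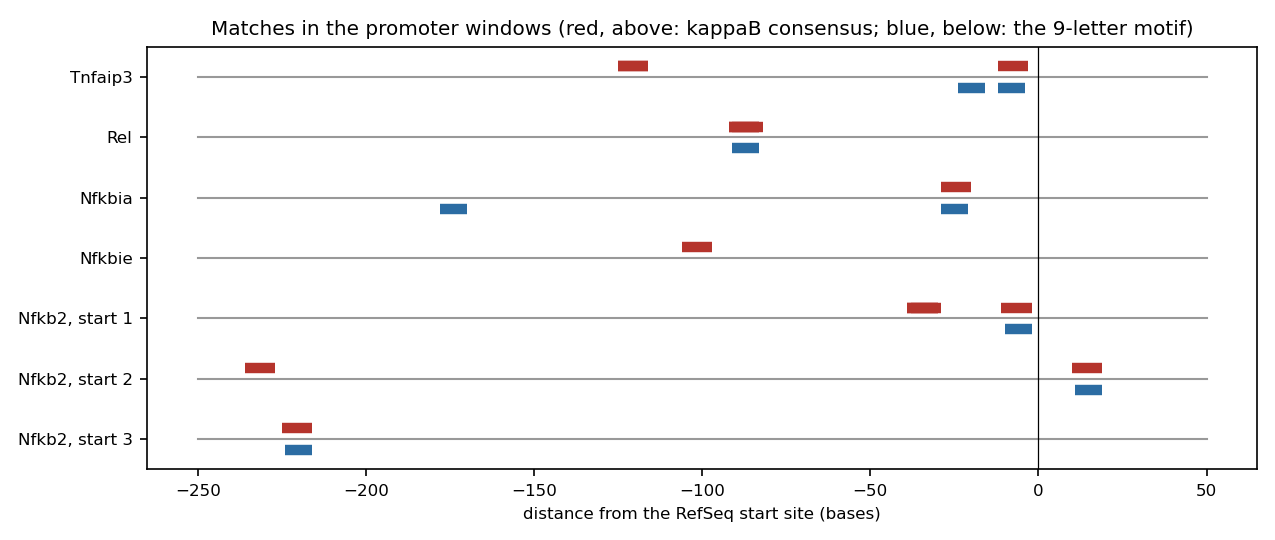
Matches to the kappaB consensus (red, above the line) and to GGNNTTTCC (blue, below the line) in the RefSeq windows that held any, by distance from the start site in bases (0 is the start). Tnfaip3 matches lie within 125 bases before the start, and the windows of Rela, Nfkbib and the other Tnfaip3 start held 0 matches and are not drawn.

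Libraries held 7697864 to 9452222 counts on genes, 30.7% to 38.5% of the reads counted, and the 10 genes had between 232 and 18542 counts in any library. Hdac3, the deleted gene, was measured first as a check of the labels: normalised read counts (CPM, counts scaled to library size by TMM) were 34.98, 44.0 and 46.4 in WT-Sham, 25.8, 25.0 and 20.9 in miKO-Sham, 54.0, 52.9 and 43.9 in WT-tFCI and 36.0, 27.2 and 28.9 in miKO-tFCI. After either surgery the highest miKO library was lower than the lowest WT library (log2 fold change −0.81 ± 0.16 SE after sham and −0.71 ± 0.16 after tFCI, edgeR quasi-likelihood adjusted p = 0.00281 and 0.0127). The fitted miKO level of Hdac3 transcripts was 0.569 of the WT level after sham and 0.611 after tFCI. Of 11 microglia markers all were measured. Their summed level was 29880 to 39060 CPM in WT-Sham, 27790 to 32730 in miKO-Sham, 21510 to 23860 in WT-tFCI and 10890 to 20670 in miKO-tFCI. The sum includes Cx3cr1, which carries CreER in 1 allele of miKO mice. The markers Ly6g of neutrophils, Pax5 and Blk of B cells and Cd8a of T cells were below 1 CPM in every library, and 0 markers of any list were at 0 throughout. miKO-Sham replicates 1 and 2 come from different sequencing batches by the labels, yet were the closest pair of replicates in the series (chi-square per degree of freedom 2.82, against 3.65 to 76.6 in the other pairs of the same group), whereas in the other 3 groups the closest pair was the pair from batch 2. They were kept as 2 libraries, and with the pair summed to 1 library, 3, 5, 8, 2 and 2 of the 10 genes passed the test used below, against 3, 4, 8, 2 and 3 otherwise, for surgery in WT mice, surgery in miKO mice, genotype after tFCI, genotype after sham and the interaction.

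Per length, Nfkbia was by far the most abundant member. Nfkbia encodes IkB-alpha, the IkB protein that is destroyed and quickly made again after a signal. Its level in WT-Sham was 1072 ± 33.9 CPM per kilobase of exon (SD, n = 3), and in miKO-tFCI it was 591 ± 14.6. Tnfaip3 followed with 89.2 ± 24.3 in WT-Sham, and Nfkbiz with 80.9 ± 3.79 and Rela with 67.1 ± 4.64, a difference within the spread of Tnfaip3. Nfkbib was at 34.9 ± 2.61. The other 5 genes lay between 10.3 and 21.8 CPM per kilobase in WT-Sham, with Rel highest and Relb lowest. The order of the leading means was not the same in every group. In miKO-Sham, Rela, at 82.1 ± 3.68, came next after Nfkbia, but Nfkbiz was at 77.6 ± 10.8, a difference within the spread of Nfkbiz. In WT-tFCI, Nfkbiz, at 146 ± 28.8, came next after Nfkbia.

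**Figure D2:**
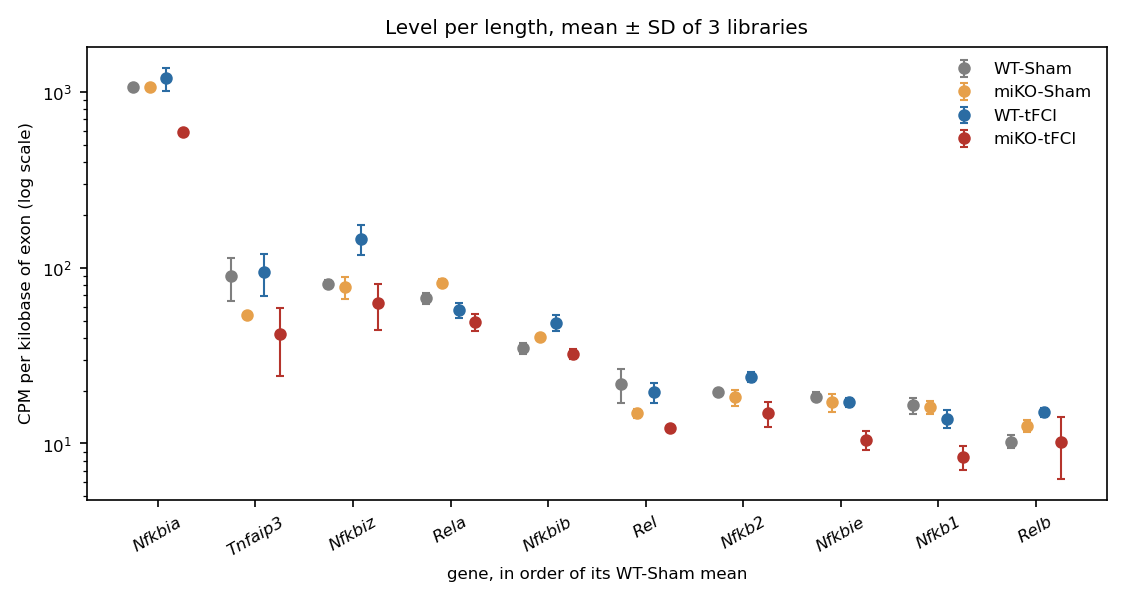
Level of each gene in CPM per kilobase of exon, on a log scale, as the mean ± SD of 3 libraries in each of 4 groups (grey WT-Sham, orange miKO-Sham, blue WT-tFCI, red miKO-tFCI), with genes in order of their WT-Sham mean. Nfkbia lies above all others in every group, and all 10 genes have their lowest mean in miKO-tFCI, Relb by the least (10.2 against 10.3 in WT-Sham).

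The comparison of miKO-tFCI with WT-tFCI asks how microglia of the miKO mice differ from those of WT mice after ischemia. The fitted difference was below 0 for all 10 genes, and 8 were lower in miKO-tFCI by the test: Nfkb1, Nfkb2 and Rel among the 5 subunits, all of the 3 classical IkB genes, Nfkbiz and Tnfaip3. A gene passes at an adjusted p under 0.05 by the quasi-likelihood test of edgeR, with Benjamini-Hochberg adjustment over all 16451 genes tested. Over all genes, 5.4% passed as lower and 4.5% as higher. The median log2 fold change of the 10 genes was −0.70, and that of all genes tested was 0.04. In 9 of the 10 genes every miKO-tFCI library lay below every WT-tFCI library, which held for 13.3% of all genes tested.

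Among the inhibitors, Nfkbia was at 1598, 2140 and 2044 CPM in WT-tFCI and at 933, 978 and 944 in miKO-tFCI. The miKO-tFCI libraries were all below the lowest library of any other group, 1598 CPM, and lay close to each other. The log2 fold change was −1.01 ± 0.14 (SE; adjusted p = 0.000385, edgeR), which is 2.02-fold lower, and was −0.78 in batch 1 and −1.12 in batch 2. Batch 1 held 1 library of each group, so every batch 1 value given here and below has no measure of spread. Nfkbiz encodes IkB-zeta, a nuclear IkB protein that helps to switch on a later wave of genes such as Il6. It was at 570, 788 and 843 CPM in WT-tFCI and at 218, 323 and 401 in miKO-tFCI, without overlap, with replicate 1 the lowest of each group. Its log2 fold change was −1.23 ± 0.19 (adjusted p = 0.000858), the largest of the 10, and was −1.38 in batch 1 and −1.18 in batch 2.

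Tnfaip3 encodes A20, an enzyme that edits ubiquitin chains and ends signalling from the TNF receptor. It was at 479, 744 and 823 CPM in WT-tFCI and at 167, 321 and 417 in miKO-tFCI. Replicate 1, from batch 1, was again the lowest of both groups, and the groups did not overlap. The fall was 2.31-fold (log2 −1.21 ± 0.21, adjusted p = 0.00214), with −1.52 in batch 1 and −1.10 in batch 2. Nfkbie encodes IkB-epsilon, which holds Rel- and Rela-containing pairs in the cytoplasm, and was at 49.2, 51.7 and 55.4 CPM in WT-tFCI and 36.1, 30.5 and 28.7 in miKO-tFCI (log2 −0.72 ± 0.14, adjusted p = 0.00471). Nfkbib encodes IkB-beta, a slower IkB protein, and was at 94.4, 106 and 116 CPM against 74.9, 66.5 and 69.5 (log2 −0.58 ± 0.12, adjusted p = 0.00787). Both genes were lower in every miKO-tFCI library.

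Among the subunits, Nfkb1, which encodes p105 and the p50 cut from it, was at 146, 170 and 185 CPM in WT-tFCI and 99.9, 118 and 86.1 in miKO-tFCI (log2 −0.72 ± 0.14, adjusted p = 0.00518). Nfkb2, the source of p100 and p52 of the non-canonical arm, was at 116, 103 and 110 CPM against 81.1, 61.5 and 61.8 (log2 −0.69 ± 0.13, adjusted p = 0.00496). Rel, which encodes c-Rel, was at 125, 151 and 162 CPM against 89.4, 93.4 and 92.3 (log2 −0.66 ± 0.15, adjusted p = 0.0110). In all 3 the groups were apart. The fall was larger in batch 2 (−0.82, −0.78 and −0.75) than in the 1 library a group of batch 1 (−0.55, −0.52 and −0.48).

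The other 2 subunits did not pass. Rela, which encodes p65, was at 168, 164 and 196 CPM in WT-tFCI and 132, 162 and 161 in miKO-tFCI, so that the groups nearly touched (log2 −0.22 ± 0.12, adjusted p = 0.280). Relb, which pairs with p52, was at 58.5, 54.7 and 62.0 CPM in WT-tFCI and at 57.0, 30.8 and 30.7 in miKO-tFCI. For Relb, miKO-tFCI replicate 1, from batch 1, stood with the WT-tFCI libraries and the other 2 lay far below them. The fitted log2 fold change was −0.58 ± 0.19 (adjusted p = 0.0707), the within-batch values were −0.04 in batch 1 and −0.92 in batch 2, and without that library it was −0.98 and passed. Rel lost its call without WT-tFCI replicate 2 (log2 −0.67) or 3 (−0.61), and Nfkbib without WT-tFCI replicate 3 (−0.52). The other 6 genes passed in all 21 alternatives.

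**Figure D3:**
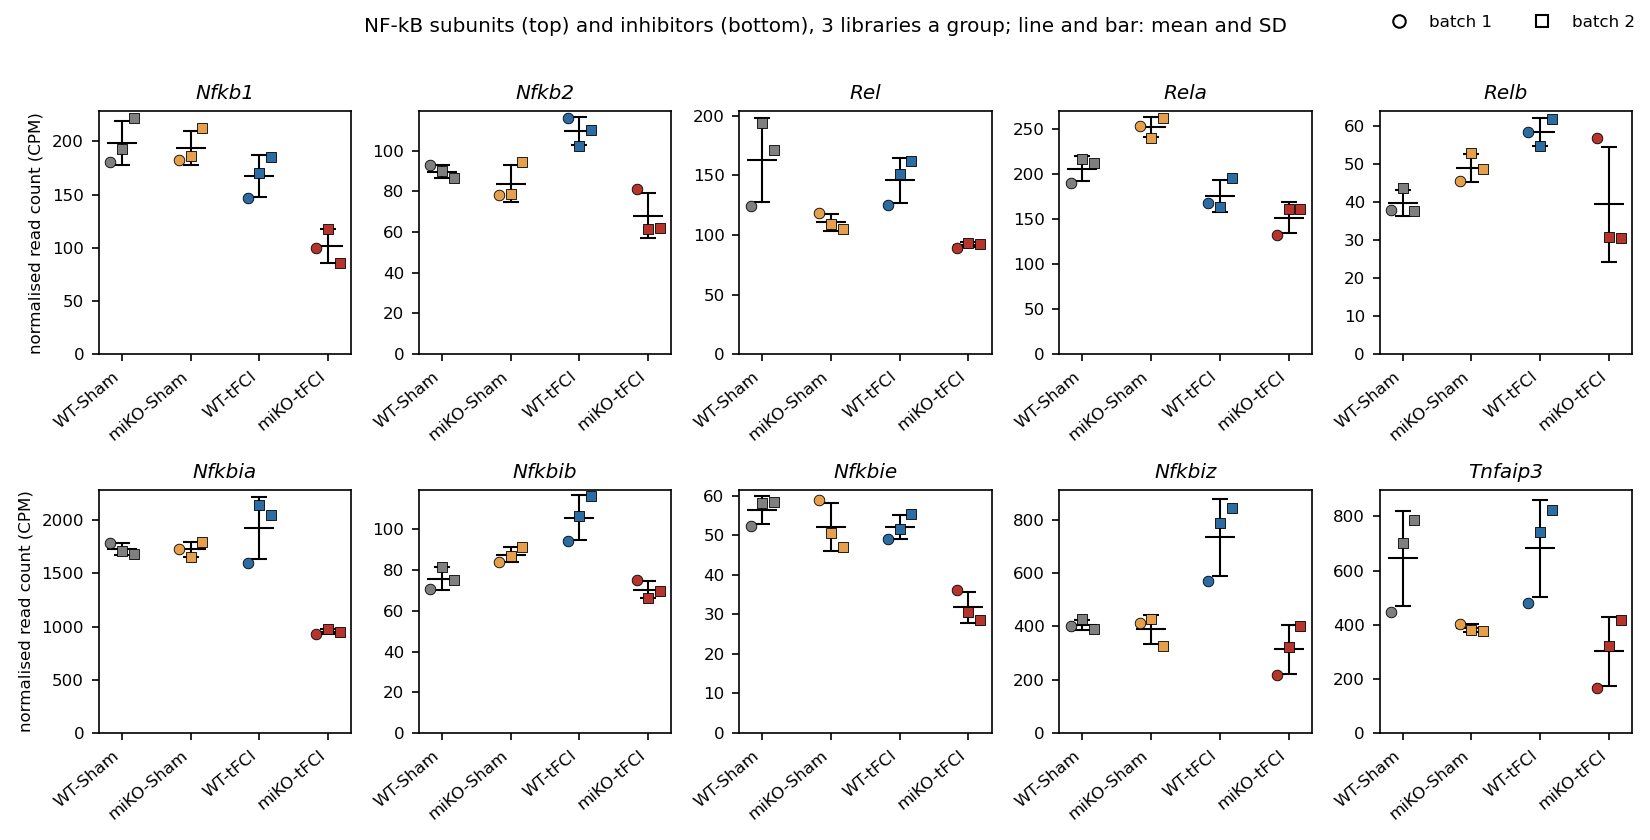
Normalised read count (CPM) of each gene in the 12 libraries, by group, with circles for batch 1, squares for batch 2 and the mean ± SD of 3 libraries as line and bar. In miKO-tFCI, Nfkbia lies at 933 to 978 CPM, below the 9 other libraries, and the circle of Relb stands apart at 57.0 CPM.

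Other measurements moved with this comparison, counted as higher or lower where they passed the same test. Of 16 immediate early genes tested, which cells switch on within minutes of a stimulus, tissue dissociation included, 14 were lower in miKO-tFCI and 0 were higher (median log2 fold change −0.79), and their summed level was 8140 to 11340 CPM against 15940 to 18090 in WT-tFCI. Jun was at 843 ± 187 CPM (SD, n = 3) against 1633 ± 191, and Btg2 at 458 ± 42.0 against 961 ± 24.7. Of 11 microglia markers, 5 were lower and 0 higher. The list holds Cx3cr1 (438 against 1527 CPM), of which miKO mice carry CreER in 1 allele. Of 9 neutrophil markers tested, 6 were higher and 1 lower, with summed levels of 930.5 to 1262 CPM against 496 to 588. Of 10 monocyte markers, 4 were higher, with summed levels of 622 to 1085 CPM against 435 to 706, and of 7 markers of border-associated macrophages, 2 were higher. Single genes of the neutrophil and monocyte sums went the other way. Csf3r of the neutrophil list had means of 261 against 352 CPM, and Fn1 of the monocyte list 206 against 369. Every other marker of these 2 lists had a higher mean in miKO-tFCI than in WT-tFCI. Of 5 astrocyte markers tested, 3 were higher and 1 lower, and of 7 dendritic cell markers tested, 2 were higher and 1 lower. The part of these genes and cell types in the levels of the NF-kB genes was not tested. In sorted bulk cells, fewer cells of a type and less RNA per cell cannot be told apart.

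The comparison of WT-tFCI with WT-Sham asks what ischemia does in microglia of WT mice. Of the 10 genes, 3 rose and 0 fell, and over all genes 23.5% passed as higher and 15.4% as lower. The number that rose thus lay near the share of all genes. The median log2 fold change of the 10 genes was 0.12, against 0.02 over all genes. Nfkbiz rose most, from 402, 427 and 389 CPM in WT-Sham to 570, 788 and 843 (log2 0.83 ± 0.19, adjusted p = 0.00267, 1.78-fold), by 0.50 in batch 1 and 1.00 in batch 2. Nfkbib rose from 70.4, 81.7 and 74.9 CPM to 94.4, 106 and 116 (log2 0.48 ± 0.12, adjusted p = 0.00602). Relb rose from 38.0, 43.8 and 37.8 CPM to 58.5, 54.7 and 62.0 (log2 0.55 ± 0.19, adjusted p = 0.0349). In these 3 genes every WT-tFCI library was above every WT-Sham library. That held for 4 of the 10 genes, with Nfkb2, which did not pass, as well. The share of all genes for which it held was not counted in this comparison, so nothing about these genes as a set is read from it. The feedback inhibitors with the best known NF-kB control did not pass: for Nfkbia the fitted log2 value was 0.15 ± 0.14 (adjusted p = 0.401, with −0.16 in batch 1 and 0.30 in batch 2) and for Tnfaip3 it was 0.08 ± 0.20 (adjusted p = 0.777). The call of Relb was lost without any 1 of the 6 libraries compared (log2 0.41 to 0.63) and without the batch term (0.55), and that of Nfkbib without WT-Sham replicate 3 (0.42) or WT-tFCI replicate 3 (0.37). Markers of other cells moved with this surgery. Of 10 monocyte markers, 5 rose and 0 fell, from summed levels of 42.2 to 109.7 CPM to 435 to 706, and of 6 endothelial markers, 5 rose and 0 fell, from 16.2 to 21.04 CPM to 33.8 to 124.7. Most of the monocyte sum in WT-tFCI was 1 gene, Fn1, with means of 369 CPM against 1.93 in WT-Sham. Means of Ly6c2 and Ccr2 were 8.68 and 9.31 CPM in WT-tFCI, against 6.83 and 6.1 in WT-Sham. Of 5 astrocyte markers tested, 3 rose and 1 fell, of 11 microglia markers 7 fell and 0 rose, and of the 16 immediate early genes 12 fell and 2 rose. Their part in the values of the 3 genes was not tested.

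The same surgery was compared in miKO mice. In miKO-tFCI vs. miKO-Sham, the fitted difference was below 0 for all 10 genes, and 4 fell and 0 rose, against 17.7% of all genes lower and 24.5% higher. The median was −0.41, against 0.03 over all genes. Nfkb1 fell from 183, 187 and 213 CPM to 99.9, 118 and 86.1 (log2 −0.93 ± 0.14, adjusted p = 0.000118). Nfkbia fell from 1730, 1652 and 1791 CPM to 933, 978 and 944 (log2 −0.86 ± 0.14, adjusted p = 0.000216). Rela fell from 254, 240 and 262 CPM to 132, 162 and 161 (log2 −0.74 ± 0.12, adjusted p = 0.000283), and Nfkbie from 58.9, 50.6 and 47.0 CPM to 36.1, 30.5 and 28.7 (log2 −0.71 ± 0.14, adjusted p = 0.000833). For each of the 4 genes the groups were apart, and the fall was between −0.64 and −0.98 in either batch. Groups did not overlap in 6 of the 10 genes, with Rel and Nfkbib, which did not pass, as well. For all genes this share was not counted here, so nothing about these genes as a set is read from it. These 4 calls held in all 21 alternatives. The other 6 genes had log2 fold changes of −0.28 to −0.47, and for several the values of the batches differed, with 1 library a group in batch 1. In batch 1 and batch 2 the difference was 0.32 and −0.72 for Relb, 0.05 and −0.48 for Nfkb2, −0.92 and −0.05 for Nfkbiz, and −1.27 and −0.05 for Tnfaip3. For Rel it was −0.41 and −0.20, and for Nfkbib −0.17 and −0.39. Without miKO-tFCI replicate 1, 7 of the 10 genes passed as lower, with Nfkb2 (−0.48), Relb (−0.75) and Nfkbib (−0.46) as well. Without miKO-Sham replicate 3 or miKO-tFCI replicate 3, 6 passed, with Nfkbiz (−0.52 and −0.54) and Tnfaip3 (−0.61 and −0.70). Here 14 of the 16 immediate early genes fell and 1 rose, and 10 of the 11 microglia markers fell and 0 rose. Of 10 monocyte markers, 7 rose and 0 fell, from summed levels of 71.6 to 209 CPM to 622 to 1085, and all 6 endothelial markers rose, from 9.61 to 13.1 CPM to 68.9 to 195. Of 5 astrocyte markers tested, 4 rose and 1 fell (109 to 134 CPM to 204 to 549.8), and of 7 markers of border-associated macrophages, 5 rose and 0 fell. The part of these genes and cell types in the values above was not tested.

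**Figure D4:**
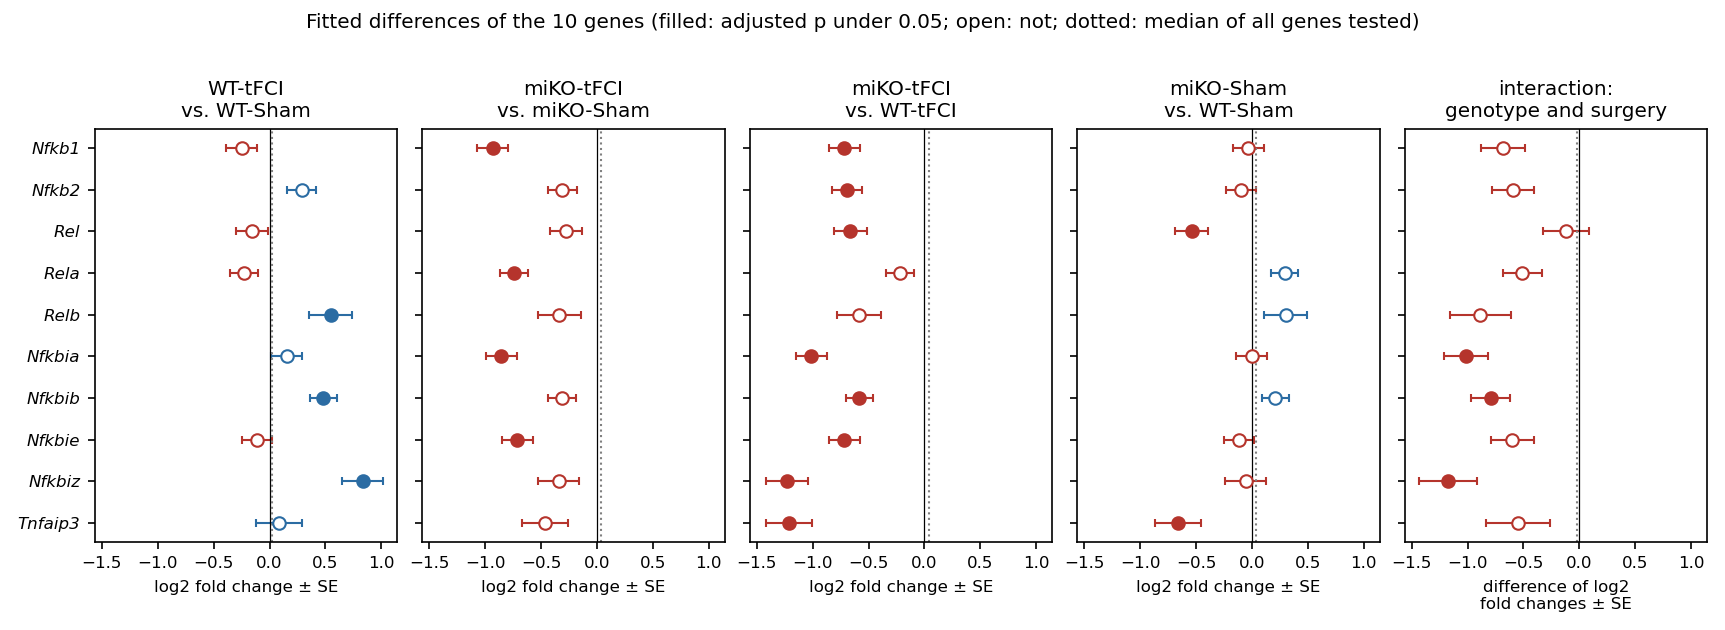
Fitted log2 fold change ± SE of the 10 genes in 5 panels, left to right: surgery in WT mice, surgery in miKO mice, genotype after tFCI, genotype after sham, and their interaction (the difference of 2 log2 fold changes). Filled points passed the test (3, 4, 8, 2 and 3 genes), red is below 0 and blue above 0, and the dotted line is the median of all genes tested.

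The sham groups compare the genotypes without stroke. In miKO-Sham vs. WT-Sham, 2 of the 10 genes fell and 0 rose, against 8.12% of all genes lower and 9.94% higher, and the median of −0.04 lay near that of all genes, 0.04. Tnfaip3 was at 448, 700 and 786 CPM in WT-Sham and at 403, 379 and 378 in miKO-Sham (log2 −0.66 ± 0.21, adjusted p = 0.0369). The miKO-Sham libraries were nearly level, and the WT-Sham libraries were spread, with replicate 1, from batch 1, close to the miKO-Sham level. The difference was −0.15 in batch 1 and −0.97 in batch 2. Rel had the same pattern, at 124, 194 and 171 CPM in WT-Sham and 119, 109 and 105 in miKO-Sham (log2 −0.54 ± 0.15, adjusted p = 0.0180), with −0.07 in batch 1 and −0.77 in batch 2. The call of Rel was lost without replicate 2 or 3 of either group (log2 −0.44 to −0.54). That of Tnfaip3 was lost without any WT-Sham library, miKO-Sham replicate 2 or 3, WT-tFCI replicate 2 or miKO-tFCI replicate 2 (log2 −0.52 to −0.72) and without the batch term (−0.74), so neither call held in all alternatives.

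Nfkbia was at 1787, 1706 and 1683 CPM in WT-Sham and 1730, 1652 and 1791 in miKO-Sham, with hardly any fitted difference (log2 −0.00171 ± 0.14, adjusted p = 0.997). Rela was at 190, 217 and 212 CPM in WT-Sham and 254, 240 and 262 in miKO-Sham, with every miKO library above every WT library, but its log2 fold change of 0.29 ± 0.12 did not pass (adjusted p = 0.117). Relb (0.30 ± 0.19) and Nfkbib (0.21 ± 0.12) were likewise above 0 without passing. Of the immediate early genes, 10 of 16 were lower in miKO-Sham than in WT-Sham and 0 were higher. Of 7 markers of border-associated macrophages, 2 were higher and 0 lower, with summed levels of 1276 to 1628 CPM against 537 to 693. Most of that sum was 1 gene, Stab1, with means of 1381 against 511 CPM. Of 7 dendritic cell markers tested, 2 were higher and 2 lower, and their summed level was 711 to 936 CPM against 1758 to 1866. Nearly all of that sum was Siglech (means of 750 against 1772 CPM), which is also in the list of microglia markers. The sum is therefore no measure of dendritic cells. Of 11 microglia markers, 4 were lower and 1 higher, in a list that holds Cx3cr1 (1196 against 3862 CPM), with CreER in 1 allele of miKO mice. The part of these genes and cell types in the sham values was not tested.

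The interaction asks whether the response to surgery differed between genotypes, and was tested in the same fit. It was below 0 for all 10 genes, and 3 passed, against 2.57% of all genes below 0 and 1.25% above 0. The median was −0.64, against −0.02 over all genes. The 3 were Nfkbia (−1.01 ± 0.20, adjusted p = 0.00918), Nfkbib (−0.79 ± 0.17, adjusted p = 0.0188) and Nfkbiz (−1.18 ± 0.26, adjusted p = 0.0211). For Nfkbia the surgery values behind the interaction were 0.15 in WT and −0.86 in miKO mice. For Nfkbib they were 0.48 and −0.31, and for Nfkbiz 0.83 and −0.34. The interaction was −0.73 in batch 1 and −1.14 in batch 2 for Nfkbia, −0.59 and −0.90 for Nfkbib, and −1.42 and −1.05 for Nfkbiz. The other 7 genes had values of −0.12 (Rel) to −0.89 (Relb, adjusted p = 0.0969; −0.30 in batch 1 and −1.24 in batch 2). All 3 calls were lost without replicate 2 or 3 of WT-Sham or WT-tFCI, with values that kept their sign (−0.93 to −0.99 for Nfkbia, −0.72 to −0.84 for Nfkbib and −1.09 to −1.17 for Nfkbiz). Nfkbib also lost its call without miKO-tFCI replicate 3 (−0.76), and Nfkbiz without miKO-Sham replicate 1 (−0.98), with miKO-Sham replicates 1 and 2 summed (−0.99) and without the batch term (−1.16). Without miKO-tFCI replicate 1, 5 genes passed, with Nfkb2 (−0.74) and Relb (−1.27) as well. In the interaction 0 of 16 immediate early genes passed, and 2 of 11 microglia markers passed below 0.

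The 4 groups can thus be ordered for the genes that changed most. Nfkbiz was highest in WT-tFCI (733 ± 145 CPM, SD, n = 3) and lower in WT-Sham (406 ± 19.0), miKO-Sham (389 ± 54.3) and miKO-tFCI (314 ± 91.7), and these last 3 did not pass a test between neighbours (adjusted p = 0.880 for the sham groups and 0.150 for miKO-tFCI vs. miKO-Sham). Nfkbiz was, however, lower in miKO-tFCI by the test without miKO-Sham replicate 3 or miKO-tFCI replicate 3 (adjusted p = 0.0430 and 0.0441) and differed by −0.92 in batch 1 and −0.05 in batch 2. Nfkbia was at 1927 ± 289 in WT-tFCI, 1725 ± 54.5 in WT-Sham and 1724 ± 69.9 in miKO-Sham, and was lower in miKO-tFCI, at 952 ± 23.5. Tnfaip3 had means of 682 ± 181 in WT-tFCI, 645 ± 176 in WT-Sham, 387 ± 14.3 in miKO-Sham and 301 ± 126 in miKO-tFCI. In batch 1 the libraries of WT-tFCI (479), WT-Sham (448) and miKO-Sham (403) lay close together and that of miKO-tFCI (167) stood apart. The sham difference between genotypes lost its call in 8 of 21 alternatives. Within each genotype its sham and tFCI levels did not pass a test of their difference (adjusted p = 0.777 in WT and 0.0836 in miKO), but in miKO mice they did without miKO-tFCI replicate 3 (0.0200) or without miKO-Sham replicate 2 (0.0427) or 3 (0.0456), and without the filter on low counts (0.00617). These comparisons share groups, so their values are not independent of each other.

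As a description, the genes whose batch-adjusted log2 CPM followed each member other than Rela most closely over the 12 libraries were looked up among all genes tested. The 12 points share 4 groups, so a correlation here mostly restates a shared order of groups. Pearson's r of the 2 closest genes ranged from 0.897 to 0.977. For Nfkbia they were 6820402A03Rik (0.961) and Cited2 (0.951), for Nfkbiz Gm46224 (0.971) and Zc3h12a (0.966), and for Tnfaip3 Alox5 (0.976) and Npat (0.962). Pde4b was the closest gene both to Relb (0.921) and to Nfkbib (0.935), followed by Cacna1f (0.897) and Gpr84 (0.930). For Nfkbie they were Arsa (0.977) and Gm49774 (0.963). For Nfkb1 they were Lmbr1l (0.962) and Zfp652os (0.961), for Nfkb2 Rrad (0.918) and Amigo3 (0.917), and for Rel 6030468B19Rik (0.969) and Siah2 (0.952). Among the 10 genes themselves, the closest partners were Nfkb1 and Nfkbie (0.931), Nfkbia with Nfkbie (0.915), Relb and Nfkbib (0.889) and Rel and Tnfaip3 (0.883).

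The 2 other nuclear IkB-like genes, Bcl3 and Nfkbid, were measured beside the 10. Nfkbid, which encodes IkB-NS, was at 159 ± 30.2 CPM in WT-Sham, 278 ± 57.0 in miKO-Sham, 340 ± 66.3 in WT-tFCI and 190 ± 38.0 in miKO-tFCI. It rose with tFCI in WT (log2 1.09 ± 0.21), fell with it in miKO mice (−0.56 ± 0.21) and was lower in miKO-tFCI than in WT-tFCI (−0.84 ± 0.21). Bcl3, a partner of p50 and p52 homodimers, rose in WT mice from 10.8 ± 2.33 to 49.7 ± 9.78 CPM and in miKO mice from 31.3 ± 6.06 to 51.8 ± 6.54, and its log2 difference between the tFCI groups was 0.07 ± 0.19 (adjusted p = 0.859). Both were higher in miKO-Sham than in WT-Sham (0.81 ± 0.21 for Nfkbid and 1.54 ± 0.21 for Bcl3), and both had an interaction that passed (−1.65 ± 0.29 and −1.47 ± 0.29).

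Upstream of the IkB proteins, few genes followed the 10 in miKO-tFCI vs. WT-tFCI. Of 11 genes of the IKK complex and its upstream kinases, 2 were higher and 0 lower (median log2 fold change 0.09). Ikbke, which encodes an IKK-related kinase of the interferon arm, was at 11.3 ± 3.06 CPM in WT-tFCI and 25.2 ± 4.80 in miKO-tFCI (1.17 ± 0.33, adjusted p = 0.0390), against 1.52 ± 0.333 in WT-Sham. The other was Ikbkg, a gene of the IKK complex, at 28.9 ± 3.78 CPM in WT-tFCI and 47.8 ± 11.7 in miKO-tFCI (0.71 ± 0.19, edgeR adjusted p = 0.0258). Ikbkg was also higher in miKO-Sham than in WT-Sham (0.83 ± 0.19). Ikbkb, the catalytic IKK of the canonical arm, did not differ by the test between the tFCI groups (0.23 ± 0.12, adjusted p = 0.248) and fell with tFCI in WT (−0.58 ± 0.12) and miKO mice (−0.37 ± 0.12). Map3k14, which encodes the kinase NIK of the non-canonical arm, also fell with tFCI in both (−0.72 ± 0.17 and −0.95 ± 0.17). Map3k8, a kinase held by p105, rose with tFCI in WT mice (1.12 ± 0.20) and had an interaction of −1.61 ± 0.28 (adjusted p = 0.00444).

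Of 18 ubiquitin editors and partners of A20, 2 were higher, 1 was lower and the median was −0.01. Otulin, which cuts linear ubiquitin chains, was higher in miKO-tFCI (109 ± 18.8 against 74.1 ± 5.61 CPM) and in miKO-Sham (142 ± 5.77 against 77.4 ± 3.59). Traf1, an adaptor of TNF receptors, was at 31.2 ± 29.2 CPM against 10.6 ± 8.61, with an SD nearly as large as the mean in both groups (1.49 ± 0.43, adjusted p = 0.0422). Itch, a partner of A20, was lower in miKO-Sham than in WT-Sham (−0.45 ± 0.12) and did not pass between the tFCI groups (−0.19 ± 0.12). Tnip3, a partner that binds A20, was under 5 CPM in every group mean and rose with tFCI in miKO mice (2.54 ± 0.55). Of 11 receptor adaptors, 0 were higher and 1 was lower (median −0.12). That gene was Card9, the adaptor of fungal lectin receptors, at 11.9 ± 1.50 CPM in miKO-tFCI against 24.1 ± 3.57 in WT-tFCI (−1.01 ± 0.22, adjusted p = 0.00941). Irak2 and Irak3, which act after the IL-1 and Toll-like receptors, were higher in miKO-Sham than in WT-Sham (1.00 ± 0.18 and 0.95 ± 0.23), and Bcl10 fell with tFCI in miKO mice (−0.76 ± 0.17).

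Of 11 receptors and ligands that start the pathway, 3 were lower in miKO-tFCI and 0 were higher (median −0.03). They were Tnf (299 ± 96.5 against 584 ± 174 CPM, log2 −0.97 ± 0.23), Il1a (277 ± 109 against 571 ± 122, −1.07 ± 0.18) and Tlr2 (326 ± 104 against 696 ± 192, −1.10 ± 0.22). Il1b was at 326 ± 172 against 478 ± 61.6 CPM and did not pass (−0.65 ± 0.24, adjusted p = 0.0996). These cytokine genes were already higher in miKO-Sham than in WT-Sham, Tnf at 344 ± 79.8 against 76.6 ± 14.3 CPM and Il1b at 327 ± 45.7 against 40.6 ± 9.11. In WT mice tFCI raised Tnf by 2.90 ± 0.25 and Il1b by 3.61 ± 0.26 on the log2 scale, while in miKO mice the differences were −0.28 ± 0.23 and −0.08 ± 0.24, and the interaction passed for both (−3.18 ± 0.33 and −3.68 ± 0.35).

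Textbook targets of NF-kB moved in both directions. Of 28 tested in miKO-tFCI vs. WT-tFCI, 7 were higher and 8 lower, with a median of 0.04, equal to that of all genes to 2 decimals. Cxcl10, an interferon- and NF-kB-driven chemokine, was at 52.9 ± 4.85 CPM against 345 ± 81.3 (log2 −2.67 ± 0.17), and Csf1, the growth factor of microglia, at 142 ± 46.4 against 236 ± 48.6 (−0.76 ± 0.18). Tnfaip2 was higher, at 111 ± 7.52 against 36.5 ± 4.96 CPM (1.60 ± 0.18). Cxcl2, a neutrophil chemokine, was at 121 ± 39.3 against 158 ± 10.7 CPM and did not pass (−0.42 ± 0.20). In WT-tFCI vs. WT-Sham, 20 of the 28 rose and 2 fell, in miKO-tFCI vs. miKO-Sham 13 rose and 10 fell, and in miKO-Sham vs. WT-Sham 13 were higher and 4 lower. The interaction passed below 0 in 13 of the 28 and above 0 in 1.

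**Figure D5:**
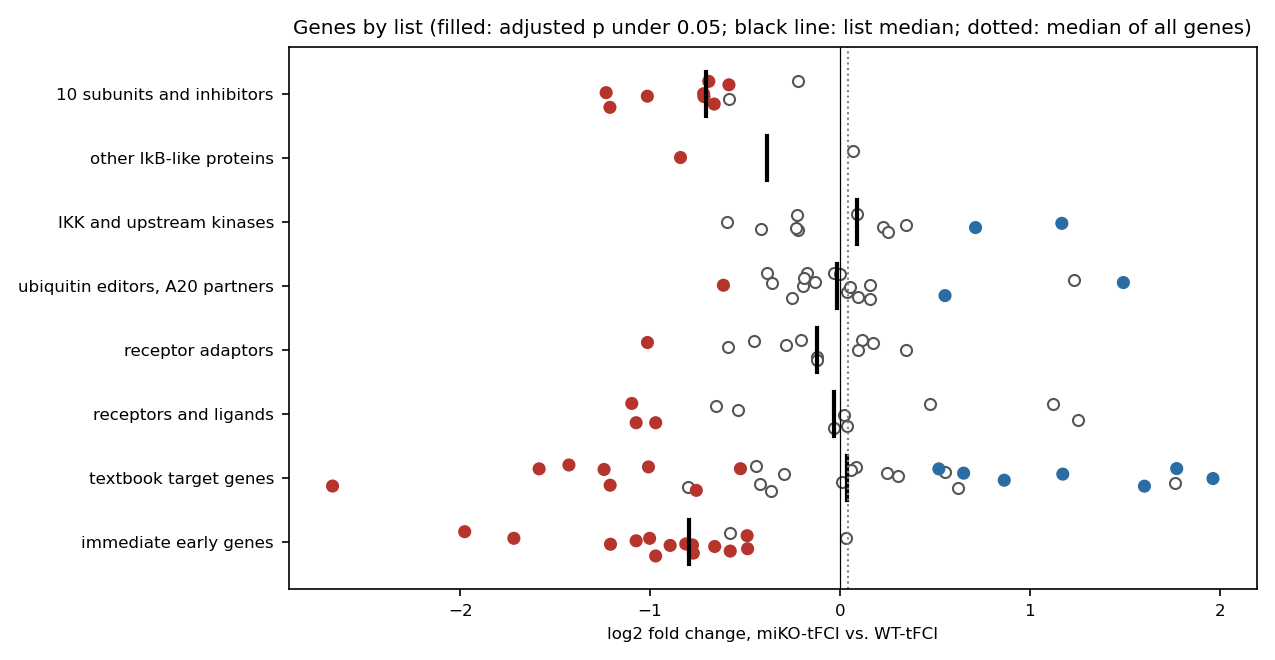
Log2 fold change in miKO-tFCI vs. WT-tFCI of the 10 genes and of the genes of 7 lists, with filled points past the test (red lower, blue higher), open points not past it, a black line at each list's median and a dotted line at the median of all genes. The medians of the 10 genes (−0.70) and of the immediate early genes (−0.79) lie apart from those of the kinases (0.09), ubiquitin editors (−0.01), adaptors (−0.12), receptors and ligands (−0.03) and textbook targets (0.04). The median of the 2 other IkB-like genes (−0.39) lies between.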

How the data were processed

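Microglia RNA was sequenced as paired-end SMART-Seq v4 libraries, and groups, replicates and batches (replicate 1 batch 1, replicates 2 and 3 batch 2) were taken from the labels. Per the labels, the authors' notes name FastQC 0.11.9, Trim Galore, HISAT2 2.2.1, SAMtools and HTSeq 1.99.2 with mm10/GRCm38.p6. The deposited values are raw counts per gene from the authors. Counting took place without a stated strand setting, and 45.3% to 52.5% of reads lay on no gene. The labels name a CytoFLEX SRT sorter and the study's methods a Cytek Aurora. GENCODE M21 matched 54349 of 55401 identifiers.

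Counts were filtered with filterByExpr (16451 genes), scaled by TMM and fitted with edgeR 4.0.16 in R 4.3.3 (quasi-likelihood, group and batch, 12 libraries, common BCV 0.199). Adjusted p under 0.05 over all genes counted as passing, and fold changes have an SE from the F statistic. log2 CPM used a prior count of 2. Alternatives were size factors, filters, DESeq2 1.42.0, batch and replicate terms, subsets, a log2 cut of 0.58 and left-out libraries. The steps were tested on simulated counts. The members and lists were chosen with earlier results of these data known. Named pathway genes were those with the smallest p of any comparison, up to 4 a list, and the 2 most correlated genes of each member. Ikbkg was named beside them, as 1 of the 2 genes of its list that were higher in miKO-tFCI than in WT-tFCI. Libraries were pools from 3 to 4 hemispheres, so p-values measure the spread between pools. The genes whose pattern was closest to that of Rela are not reported here.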

Additional observations from a re-analysis of the deposited data

Results flagged for a closer look

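The response to surgery differed between the genotypes, by the interaction term of the fit, for 3 of the 10 genes. The difference of log2 fold changes was −1.01 for Nfkbia, −0.79 for Nfkbib and −1.18 for Nfkbiz (adjusted p = 0.00918, 0.0188 and 0.0211, edgeR). For these 3 genes it was below 0 in both batches, and each lost its call without replicate 2 or 3 of WT-Sham or of WT-tFCI.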

How the results depend on the processing

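Leaving out 1 library at a time, the number of genes passing ranged from 1 to 3 in WT-tFCI vs. WT-Sham, from 4 to 7 in miKO-tFCI vs. miKO-Sham, from 6 to 9 in miKO-tFCI vs. WT-tFCI, from 0 to 2 in miKO-Sham vs. WT-Sham and from 0 to 5 in the interaction, against 3, 4, 8, 2 and 3. With a log2 fold change above 0.58 required as well, 1 passed for surgery in WT mice (WT-tFCI vs. WT-Sham) and 1 for genotype after sham (miKO-Sham vs. WT-Sham). With batch 2 only, 7 passed in miKO-tFCI vs. miKO-Sham. Without the batch term, 1 passed in miKO-Sham vs. WT-Sham. In the interaction, 5 passed without the filter and 5 by DESeq2. The cause of these changes was not tested. Over all genes, miKO-tFCI vs. WT-tFCI called 741 higher and 888 lower, and 745 in all without the batch term, 2466 without the filter, 3028 with only the groups compared and 616 to 946 without WT-tFCI replicate 2 or 3 or miKO-tFCI replicate 3. The interaction called 206 higher and 423 lower, and 965 in all by DESeq2, 1272 without the filter, 303 without the batch term, 417 with miKO-Sham replicates 1 and 2 summed and 281 to 383 without replicate 2 or 3 of WT-Sham or WT-tFCI or miKO-Sham replicate 1. DESeq2 moved the median of all genes by 0.11 in miKO-tFCI vs. miKO-Sham and in the interaction.

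Signs turned only for uncalled values near 0. In miKO-Sham vs. WT-Sham, values without 1 library ranged from −0.0964 to 0.028 for Nfkb1, from −0.21 to 0.0158 for Nfkb2 (0.0267 with miKO-Sham replicates 1 and 2 summed), from −0.0523 to 0.0679 for Nfkbia (0.0144 with batch 2 only) and from −0.25 to 0.11 for Nfkbiz. The interaction of Rel ranged from −0.235 to 0.0358, and Tnfaip3 in WT-tFCI vs. WT-Sham from −0.0275 to 0.133. Of the values of single genes, 959 kept direction and side of the threshold, 40 lost a call and 28 gained one.

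The replicate block, which adds replicate number to the fit, left 3, 4, 8, 2 and 3 genes passing. Same-numbered libraries shared deviations weakly (median correlation 0.140 for number 1, −0.01 for number 2 and 0.224 for number 3), and 7 of 12 libraries were closest to one with their own number, so beyond batch the numbers were not taken as pairs. The lowest count of a gene in a library was 232, and 3 libraries a group limit every test.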
